A study of Mus musculus with 173 samples.

Results

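The genes of mitosis and the spindle were taken as a list of 37 names out of the 23307 rows of an expression table of single cells from the mouse dentate gyrus. All 37 names were found in the table, and all 37 passed the filter on low values, a TPM of at least 1 in at least 5% of libraries, which 12007 genes passed. The names were chosen by function and not by a value in this table, although earlier results of these data were known when they were chosen. TPM is a transcript level per length, scaled so that every library has the same total.

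Each library is the RNA of 1 cell of the dentate gyrus, the hippocampal region that goes on making neurons in adult life. The animals shared by all groups were C57BL/6 mice of 8 to 12 weeks, and the series is described as covering quiescent neural stem cells and the cells they give rise to. By the first letter of their titles the libraries formed 3 classes, R with 4 libraries, N with 26 and C with all others of the 172, and the labels say neither what the letters stand for, nor which animals the cells came from, nor by which markers, transgene or gate they were picked. The table also holds a row for the fluorescent reporter eCFP, whose median level was 8739 TPM in the C class, against 44.6 TPM in the N class and 12.0 TPM in the R class, but the labels do not say what drives it. Because no animal is named and cells of unnamed animals are not replicates, each class counted as 1 sample. Differences between classes are given as measured values with the spread over cells, with no test.

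A dividing cell builds a spindle of microtubules, attaches each chromosome to it through the kinetochore, waits at a checkpoint until all are attached, and then destroys cyclin B so that the chromosomes part and the cell is cut apart. Most of the genes behind these steps are transcribed late in the cell cycle, in G2 and mitosis, and are shut down in resting cells. In the dentate gyrus the radial glia-like stem cells are mostly quiescent, and most divisions are made by the intermediate progenitors that follow them on the way to the granule neuron.

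Single libraries held from 1717 to 7192 genes at a TPM of at least 1 in C, from 1600 to 4885 in N and from 2476 to 3838 in R. The unit keeps no read depth, so how far a missing value reflects shallow sequencing is unknown, and a value of 0 says only that the gene was listed at 0: Gapdh, a gene of every cell, was listed at 0 in 2 libraries. The defining markers of radial glia were strong in C, where the mean over the 19 stem cell markers had a median of 5.93 on the log2(TPM + 1) scale, against 2.76 in N and 3.77 in R. Markers of another cell type (oligodendrocyte precursor, oligodendrocyte, endothelial, mural, microglial or mature neuronal) averaged at least 4 on that scale in 16 C libraries, 18 N libraries and 4 R libraries. The astrocyte list, which was not part of that count, averaged at least 4 in 64 C libraries, 1 N library and 1 R library. In all 4 R libraries the mature neuron list was that high, with a lowest mean of 4.60. For C27 the table has 1 column where the labels have 2 samples, and it was used as a C library.

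The C class held cells in which most of the 37 genes were present together, and among the N and R libraries 1 N library did so, at low levels. A member was counted as present at a TPM of at least 1. The number of members present ran from 0 to 35 over the C libraries with a median of 8, against 1 to 19 with a median of 7.5 in N and 1 to 9 with a median of 4.5 in R. The medians of the classes lay close together, and the highest counts were in C, the class with the most libraries. At least 19 of the 37 members were present in 16 C libraries (11.3% of the class, exact Clopper-Pearson 95% interval 6.58 to 17.7), in 1 of 26 N libraries (3.85%, 0.0973 to 19.6) and in 0 of 4 R libraries (0 to 60.2). A count of 0 in 4 libraries thus allows a share of up to 60.2%. These intervals cover counting error only. The C share lay inside the intervals of N and R, so at these numbers of libraries a difference in the share was not detectable.

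With a TPM of at least 10 as the mark, 13 C libraries had 19 or more members (4.97 to 15.1% of the class), all of them among the same 16, and 0 N libraries did (0 to 13.2%). The N library N4 held 19 members, none of them at a TPM of 10: its highest were Ube2c at 7.95 TPM, Ccnb1 at 6.28 TPM and Bub3 at 4.86 TPM. The mean over the 37 members on the log2(TPM + 1) scale was 1.30 ± 1.87 in C (SD over cells, range 0.06 to 8.64), against 0.57 ± 0.27 in N (26 cells, 0.15 to 1.25) and 0.52 ± 0.29 in R (4 cells, 0.12 to 0.78). A mean of 2 was passed by 19 C libraries and by 0 N libraries. The C range therefore covered the N and R ranges and went on far above them.

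**Figure D1:**
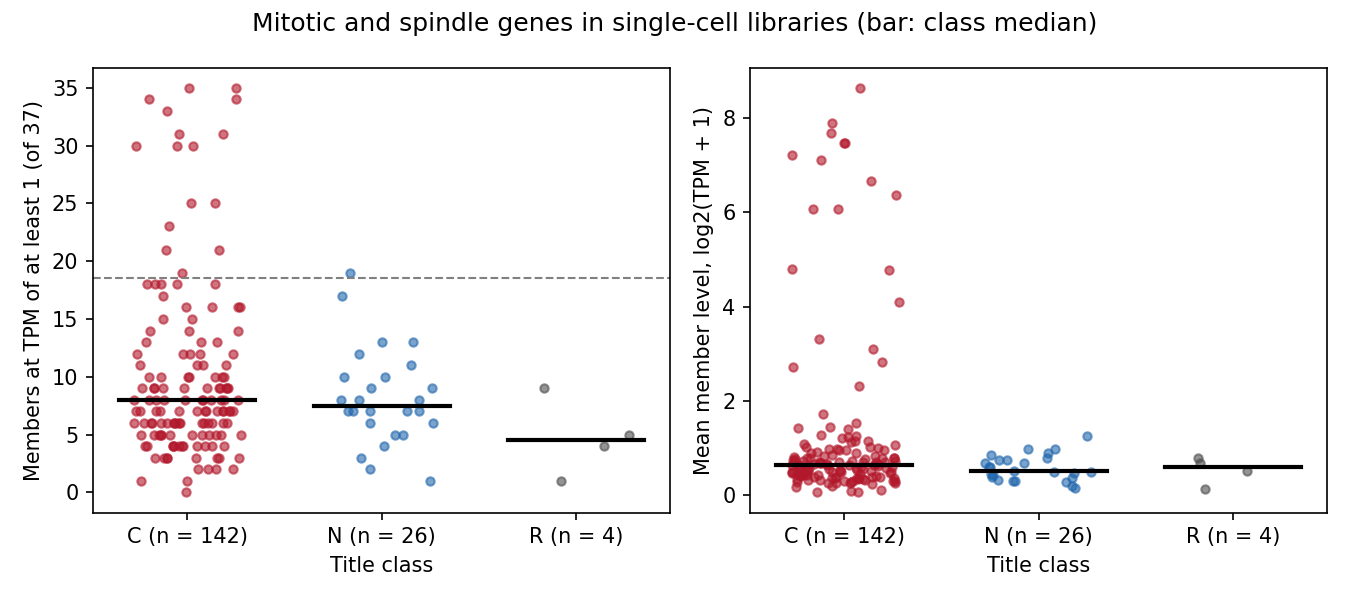
Members present at a TPM of at least 1 (left, out of 37; the dashed line marks the 19 needed for a high library) and mean member level in log2(TPM + 1) (right), with 1 point per library and a bar at the class median, for C, N and R. The class medians of 8, 7.5 and 4.5 members lie close together, while 16 C libraries and 1 N library stand above the line.

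Taken gene by gene, all 37 members had a higher mean in C than in N, beside 63.3% of all 12007 genes. The differences ran from 0.20 to 1.75 on the log2(TPM + 1) scale. The member mean was 0.52 in the 92 C libraries with fewer than 10 members present, against 0.57 in N. Those 92 were picked by that count. A difference of more than 1 was found for 6 of the 37 members (16.2%), beside 9.98% of all 12007 genes, and none was lower in C by more than 1, beside 4.19% of all genes. The median difference over the members was 0.73, and over all genes it was 0.17. The 6 members past 1 were the checkpoint protein Bub3 (1.75), the passenger protein Cdca8 (1.23), the DNA untangling enzyme Top2a (1.21), the kinetochore protein Nuf2 (1.11), the ubiquitin enzyme Ube2c (1.06) and the survivin gene Birc5 (1.02). For every one of them the difference was smaller than the SD over C cells. With libraries rescaled to a common median ratio 2 of 37 members passed 1, beside 6.35% of all genes, so the members' share was then below that of all genes. Without the libraries high in another cell type's markers, which leaves 8 of the N libraries, 3 of 37 members passed 1, beside 11.8% of all genes, and 33 of 37 lay above 0. The median member difference was then 0.59, and over all genes it was 0.11.

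Against R, 14 of 37 members (37.8%) were higher in C by more than 1, beside 22% of all genes, and 1 was lower by more than 1, beside 20.9%. The median member difference was 0.69, and that over all genes was 0.36. The member below -1 was Bub3, at 684.94 TPM in R1, 29.05 TPM in R2, 74.29 TPM in R3 and listed at 0 in R4. In 3 of the 4 R libraries Bub3 was thus above the C median of 2.11 TPM. Apart from Bub3, Tpx2 reached 201 TPM in R3 and Cenpf 39.8 TPM in R2, and the next highest value of another member was Ccna2 at 11.2 TPM in R3. Bub3 encodes a checkpoint protein that also has roles outside mitosis.

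To see which C cells used the genes, the C libraries were set in 3 ranges by the number of members present: high with 19 or more, intermediate with 10 to 18, and low with fewer than 10. This gave 16 high, 34 intermediate and 92 low libraries. These are ranges of a count and not cell types. Of the high libraries 3 lay within 3 members of the limit, and 10 libraries lay within 3 members below it, 5 of these with 18 members. 10 of the 16 high libraries had 30 or more members, and none in C had 26 to 29. The differences between ranges in the members themselves follow from how the ranges were made and are given as descriptions.

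The sequence just upstream of these genes is shown for 6 members, chosen after their values and sequences were seen, to show how the letters described next can be laid out. Ccnb1, Ccnb2, Cdc20, Cenpf and Kif23 are 5 of the 13 members that passed a TPM of 10 in 0 of the 92 low libraries, and Birc5 was present in most libraries of every range. Many promoters of G2 and mitosis genes are known to carry CCAAT boxes, which the factor NF-Y binds, and the cell cycle homology region, with the core TTTGAA, through which the genes are held silent in resting cells. Each sequence runs from 120 bases before the annotated start to 30 after it on the strand of the gene (RefSeq, build GRCm38.p6), and capitals mark CCAAT and TTTGAA on either strand, so that a box on the other strand reads ATTGG.

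Ccnb1 (chr13:100786457-100786606, minus strand): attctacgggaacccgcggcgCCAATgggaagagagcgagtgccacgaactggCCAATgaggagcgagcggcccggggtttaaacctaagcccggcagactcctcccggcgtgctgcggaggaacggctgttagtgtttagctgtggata

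Ccnb2 (chr9:70421525-70421674, minus strand): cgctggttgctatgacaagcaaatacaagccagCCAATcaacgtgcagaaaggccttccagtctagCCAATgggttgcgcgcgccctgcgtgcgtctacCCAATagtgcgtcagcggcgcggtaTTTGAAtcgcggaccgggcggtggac

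Cdc20 (chr4:118437314-118437463, minus strand): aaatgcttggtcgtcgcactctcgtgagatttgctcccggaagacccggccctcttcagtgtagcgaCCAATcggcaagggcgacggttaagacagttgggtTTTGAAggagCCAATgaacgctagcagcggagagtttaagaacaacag

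Cenpf (chr1:189688057-189688206, minus strand): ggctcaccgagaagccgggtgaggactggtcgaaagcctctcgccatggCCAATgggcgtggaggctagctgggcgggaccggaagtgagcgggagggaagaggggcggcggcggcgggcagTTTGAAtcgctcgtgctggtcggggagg

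Kif23 (chr9:61946770-61946919, minus strand): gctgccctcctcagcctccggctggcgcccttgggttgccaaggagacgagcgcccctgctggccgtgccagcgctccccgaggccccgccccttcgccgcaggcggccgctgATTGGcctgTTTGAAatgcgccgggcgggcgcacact

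Birc5 (chr11:117849117-117849266, plus strand): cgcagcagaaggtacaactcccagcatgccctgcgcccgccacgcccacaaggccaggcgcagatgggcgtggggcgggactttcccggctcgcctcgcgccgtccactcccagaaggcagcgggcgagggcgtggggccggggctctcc

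Counted from the annotated start as base 1, with negative positions upstream, the Ccnb1 window had CCAAT at -99 and -67 and no TTTGAA. The Ccnb2 window had CCAAT at -87, -54 and -21, evenly spaced on the strand of the gene, and TTTGAA at 5. Another TTTGAA lay at -167, before the printed stretch. Cdc20 had CCAAT at -53 and -8 with TTTGAA at -18 between them. Cenpf had CCAAT at -71 and TTTGAA at 3, with another CCAAT at -132, before the printed stretch. Kif23 had CCAAT on the opposite strand at -7 and TTTGAA at 3. No such letters were found in the Birc5 window. RefSeq windows of 300 bases (250 before the start to 50 after it) were at hand for 32 of the 37 members. CCAAT was present on either strand in 81.2% of these 32 members and in 41.1% of 27025 genes, TTTGAA in 75% of members and 20.2% of all genes, and both in 1 window in 68.8% of members and 7.97% of all genes. Among stem cell markers both strings stood together in 3 of 16 genes (18.8%), and among other genes of G2 and mitosis in 26 of 53 (49.1%). A pair of CCAAT boxes on 1 strand with starts 30 to 35 bases apart was found in 7 of 32 members (21.9%), beside 1.36% of all genes. Of the 13 members at a TPM of 10 in no low library 12 had a window, 8 of them with both strings and 4 with 1 of the 2. Over all 32 members with a window, 22 had both. Bub3, Prc1 and Ube2c, which like Birc5 were often present in low libraries, each had both strings. The 6 printed sequences therefore do not show a link between the strings and presence in low libraries. The 4 members with neither string were Nuf2, Nusap1, Mad2l1 and Birc5. A match is a run of letters in a short window and not a measured site.

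Where 3 values stand for a range of libraries, they are its lowest, median and highest level. The cyclins and their kinase drive entry into mitosis, and in C the medians of all but Ccnf were far higher in high than in low libraries. Cdk1, the kinase that triggers mitosis, had 0 TPM in the lowest of the 16 high libraries, a median of 248 TPM and a highest value of 1345 TPM, against 0, 0 and 447 TPM in the 92 low libraries. Ccnb1, cyclin B1, its main partner, had 0.60, 626 and 3480 TPM in high libraries, against 0, 0 and 4.76 TPM in low ones. The 2 ranges overlapped for Ccnb1 only at the bottom of the high one, while Cdk1 was also strong in a few low libraries, 3 of which passed 10 TPM. Ccnb2, cyclin B2, had 0, 320.1 and 1827 TPM in high libraries and 0, 0 and 3.64 TPM in low ones. Ccna2, the cyclin of S phase and G2, was present in 15 of 16 high libraries and in 12 of 92 low ones. The 3 cyclins Ccna2, Ccnb1 and Ccnb2 were present together in 10 of 16 high, 2 of 34 intermediate and 0 of 92 low libraries, and in 0 of 26 N libraries. Cdkn3, a phosphatase that acts on cyclin-dependent kinases, was present in 10 high libraries and 4 low ones, always above 10 TPM in the high ones. Ccnf, cyclin F, a substrate receptor of a ubiquitin ligase, had the smallest difference between the ranges of all members (1.29): it was present in 5 high libraries and 3 low ones, and its highest level, 1192 TPM, was in a low library.

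The mitotic kinases and the chromosomal passenger complex, which corrects wrong attachments, followed the cyclins with the exception of Birc5. Aurkb, the kinase of that complex, had 0, 331 and 1595 TPM in high libraries, against 0, 0 and 1.95 TPM in low ones. Its partner Cdca8, borealin, had 0, 643 and 1159.7 TPM in high libraries, against 0, 0 and 513 TPM in low ones. Incenp, the scaffold of the complex, was present in 11 of 16 high and 2 of 92 low libraries. These partners were thus present in most high libraries and in few low ones. Birc5, survivin, had 20.6, 969.9 and 2761 TPM in high libraries, against 0, 5.12 and 108.9 TPM in low ones. It was present in all 16 high libraries, but also in 80 of 92 low ones and in 22 of 26 N ones, so its presence did not set the ranges apart while its level did. Aurka, the kinase of the spindle poles, was present in 10 of 16 high and 5 of 92 low libraries. Plk1, polo-like kinase 1, which acts from mitotic entry to exit, was likewise present in 10 high and 5 low libraries.

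Spindle checkpoint genes hold back chromosome separation. Mad2l1, the checkpoint protein that binds Cdc20, had 0, 308 and 1441 TPM in high libraries, against 0, 0 and 843 TPM in low ones. Its low-range maximum came from 1 of the 2 low libraries above 10 TPM. Bub1b, BubR1, was present in 10 high and 3 low libraries, the kinase Bub1 in 9 high and 2 low ones, and the kinase Ttk, which starts the signal, in 9 high and 2 low ones. Bub3, which carries Bub1 and Bub1b to the kinetochore, had 0, 791 and 1876 TPM in high libraries, against 0, 1.42 and 1748 TPM in low ones, and was present in 48 of 92 low libraries. Its ranges overlapped over nearly their whole width, with 22 low libraries above 10 TPM.

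At the centromere and kinetochore, Spc25 and Cenpf were strong in nearly all high libraries and near 0 in nearly all low ones. Spc25, of the Ndc80 complex that grips microtubules, had 0, 558 and 2015 TPM in high libraries, against 0, 0 and 55.7 TPM in low ones. Its overall maximum of 2739 TPM was in an intermediate library, and 1 N library, N5, reached 194 TPM. Cenpf, a kinetochore protein of G2 cells, had 0.23, 97.7 and 778 TPM in high libraries, against 0, 0.21 and 6.02 TPM in low ones. For Cenpf 14 high libraries passed 10 TPM and 0 low ones did. Nuf2 was present in 14 of 16 high libraries and 27 of 92 low ones, and its partner Ndc80 in 11 high and 3 low ones. The centromeric histone Cenpa was present in 10 high and 5 low libraries, and the motor Cenpe, which carries chromosomes to the plate, in 12 high and 2 low ones.

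Among spindle motors and microtubule proteins, 2 were also common in low libraries at small levels. Prc1, which bundles the midzone of the spindle, had 9.98, 1059.6 and 2192 TPM in high libraries, against 0, 1.66 and 41.2 TPM in low ones. Kif11, the motor that pushes the poles apart, had 0, 261 and 833 TPM in high libraries, against 0, 0.63 and 88.1 TPM in low ones. Prc1 was thus present in 57 and Kif11 in 38 of 92 low libraries, but 4 low libraries passed 10 TPM for Prc1 and 2 did for Kif11. Kif23, a motor of the midzone needed for the last cut, had 0, 157 and 1660 TPM in high libraries, against 0, 0 and 3.07 TPM in low ones, and was present in 14 high libraries and 1 low one. Tpx2, which activates Aurka on the spindle, was present in 15 of 16 high and 24 of 92 low libraries, Nusap1, a microtubule stabilizer, in 13 high and 7 low ones, and Kif20a, a motor of cytokinesis, in 10 high and 12 low ones.

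Of the genes of ubiquitin transfer around the anaphase-promoting complex (APC/C), Cdc20, its activator, had 0, 76.6 and 1037 TPM in high libraries, against 0, 0 and 7.98 TPM in low ones. It was present in 9 high libraries, each time above 10 TPM, and in 2 low ones. Ube2c, the APC/C's own conjugating enzyme, had 0, 754 and 1831 TPM in high libraries, against 0, 2.86 and 39.5 TPM in low ones, and was present in 53 of the 92 low libraries. Cdca3, a trigger of mitotic entry, had 0, 791 and 1976 TPM in high libraries, against 0, 0 and 766 TPM in low ones. Ube2t, a conjugating enzyme of DNA crosslink repair, was present in 8 high and 6 low libraries.

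The cytokinesis genes were rare in the low range. Ect2, which switches on the contractile ring, had 0, 17.8 and 409 TPM in high libraries, against 0, 0 and 0.71 TPM in low ones, so that it was present in 10 high libraries and in 0 of 92 low ones. Anln, a scaffold of that ring, was present in 12 high libraries and 1 low one. The 2 genes of chromosome structure were present in every high library. Mki67, which coats mitotic chromosomes, had 1.07, 215 and 579.8 TPM in high libraries, against 0, 0 and 186 TPM in low ones, and Top2a had 23.02, 801 and 2095 TPM in high libraries, against 0, 0 and 415 TPM in low ones. Birc5, Prc1, Mki67 and Top2a were the 4 members present in all 16 high libraries. Mki67, Top2a, Cdk1 and Ccnb1 were present together in 12 of 16 high, 4 of 34 intermediate and 1 of 92 low libraries.

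**Figure D2:**
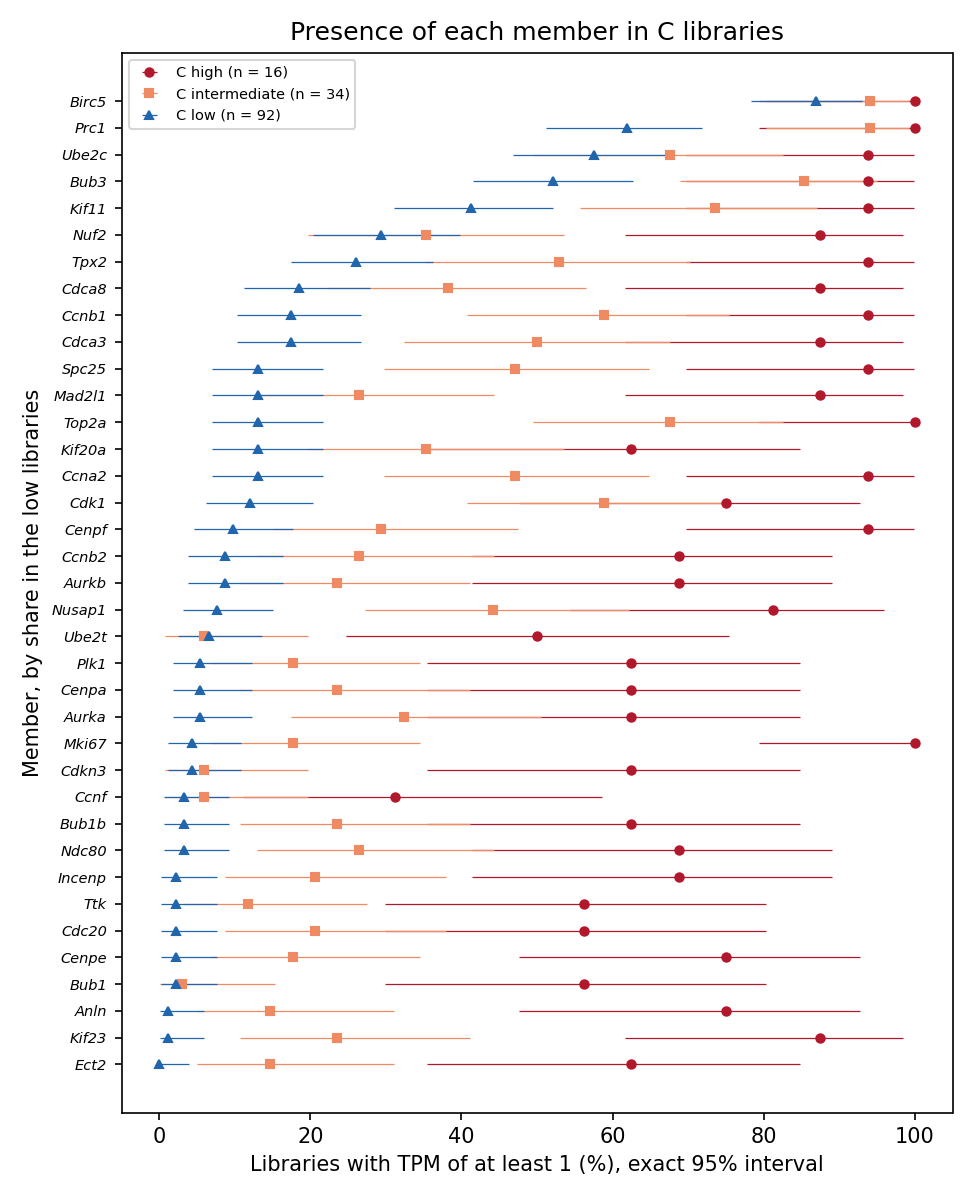
Share of C libraries with each member at a TPM of at least 1, in percent, with exact 95% intervals, for 16 high, 34 intermediate and 92 low libraries. Birc5, Prc1, Ube2c and Bub3 were present in 80, 57, 53 and 48 of the 92 low libraries, and Ect2, Kif23 and Anln in 0, 1 and 1.

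Of the 37 members, 8 overlap a coding gene on the opposite strand in the GENCODE annotation of GRCm38: Ccna2 (Exosc9), Cdca8 (9930104L06Rik), Bub3 (Fgfr2), Kif20a (Cdc23), Nusap1 (Oip5), Prc1 (Rccd1), Cdc20 (Elovl1) and Ube2c (Tnnc2). The overlap is one of whole annotated gene spans, and overlap of exons was not checked. Whether the counting used strand is not given in the sources used here. How far the reads of these 8 members can be told apart from those of the partner is therefore unknown. Bub3, Prc1 and Ube2c are 3 of the 4 members most often present in low libraries, and the part of the partner genes in that was not tested.

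The 16 high libraries differed in how much of the program they held. C113 and C121 had 35 members each, C104 and C75 had 34, C125 had 33, C43 and C79 had 31, and C111, C140 and C57 had 30. C27 and C36 followed with 25, C135 with 23, C20 and C59 with 21, and C83 with 19. The mean member level ran from 8.64 in C113 to 1.72 in C20, with a median of 6.51 on the log2(TPM + 1) scale. C20 stood apart: 8 of its 21 members passed 10 TPM, it had the most genes of the 16 libraries (5700), and its astrocyte list mean of 5.91 was the highest among them. The high libraries had a median of 4137.5 genes, against 4009 in the intermediate and 3554 in the low ones, and the eCFP median was 7619 TPM in high, 9046 TPM in intermediate and 8795 TPM in low libraries. Across the C libraries the number of members and the number of genes had a Spearman rho of 0.38, and the member mean and the number of genes one of 0.43. How much of the count rests on this was not tested.

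**Figure D3:**
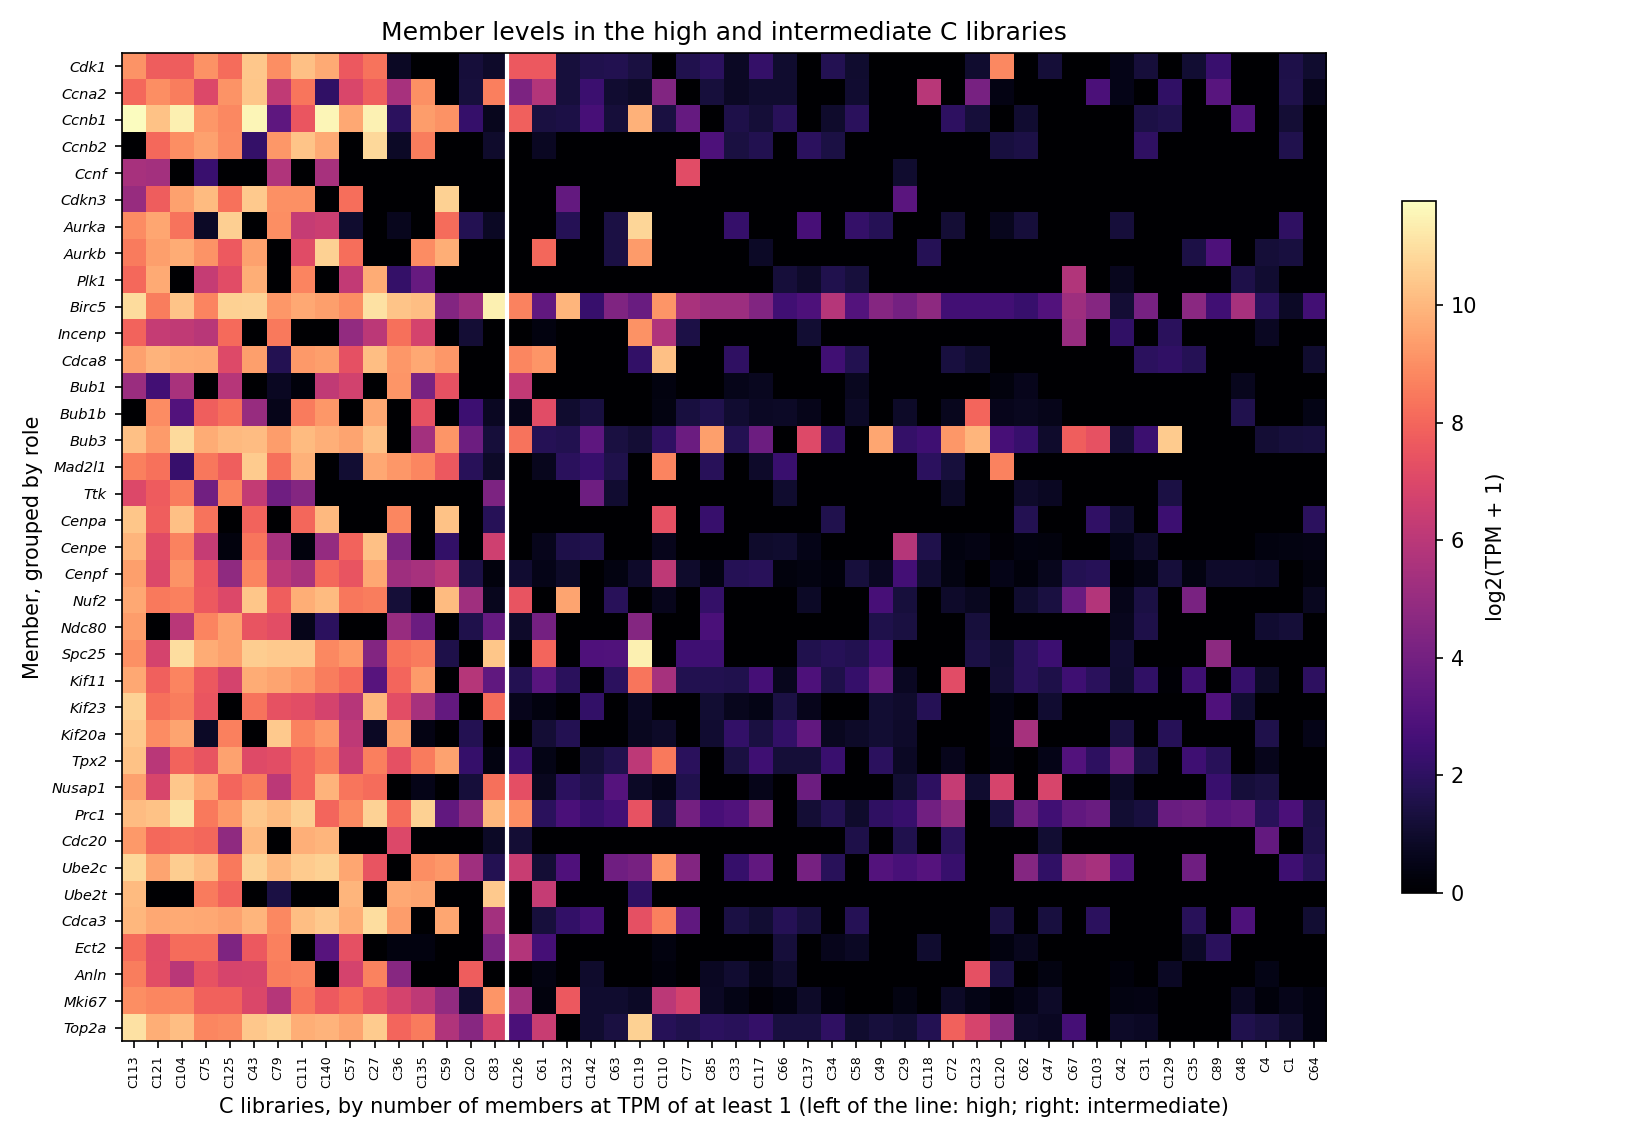
Level of each member (rows, grouped by role) in log2(TPM + 1) in the 16 high C libraries (left of the white line) and the 34 intermediate ones (right), ordered by the number of members present. The 10 libraries with 30 to 35 members at the left are filled almost throughout, while intermediate libraries show single bright genes.

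Some members also reached high levels outside the high range. In low libraries, 1192 TPM of Ccnf, 975 TPM of Ttk, 843 TPM of Mad2l1 and 766 TPM of Cdca3 were highest values of genes whose low-range median was 0. The intermediate range showed the same, with Aurka up to 1779 TPM and a median of 0, Incenp up to 540.2 TPM and Cdca8 up to 1205 TPM. The maxima of Ccnf, Ttk, Aurka, Incenp and Cdca8 were larger than the highest values of the same genes in high libraries.

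Over all C libraries the members varied together. Each member was set against the mean of the other 36 by Spearman's rho, which had a median of 0.41 over the members, with Top2a highest at 0.62 and Ccnf lowest at 0.20. All 666 pairs of members had a rho above 0, with a median of 0.32, and Mki67 and Top2a were the closest pair at 0.70. The same share and median were not computed over pairs of other genes, so how far they are particular to the members is unknown. These values describe cells that share unknown animals, library scale and depth. Among 9333 genes present in at least 10% of C libraries, whose median rho with the member mean was 0.07, 13 of the 20 highest were on the lists of other G2 and mitosis genes or S phase genes. Outside all lists the closest were 1190002F15Rik (0.56), Esco2 (0.55), Neil3 (0.55), 2810417H13Rik (0.52), Hist1h2ao (0.48), Terf1 (0.47), Ran (0.47), Cdca4 (0.46), Tubb5 (0.44) and Tmsb10 (0.44). Esco2, which acetylates cohesin, had a median of 88.8 TPM in high libraries, against 0 TPM in low ones, and 1190002F15Rik was present in 16 of 16 high and 6 of 92 low libraries.

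The rest of the mitotic program was high in the same cells. Of 72 other genes of G2 and mitosis, 67 had a mean higher in high than in low libraries by more than 1, with a median difference of 3.67. The filter was passed by 65, some of them mainly through the high libraries, and 64 of these were higher in high than in low libraries by more than 1 on the log2(TPM + 1) scale, beside 19.1% of all genes; their median difference was 4.05, and over all genes it was 0.13. Cks2, a small subunit of cyclin-dependent kinases, had a median of 1739.9 TPM in high libraries, against 0 TPM in low ones, the largest difference of the list (9.47). Pbk, a mitotic kinase, had 1451 TPM in high libraries, against 0 TPM in low ones (8.54). The smallest differences past the filter were those of Cit, a kinase of the midbody (1.02), and Sapcd2 (0.68).

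Genes of S phase, in which DNA is copied, were high in some of these cells. Of 47 genes past the filter 40 were higher in high libraries by more than 1, beside 19.1% of all genes, with a median of 2.24, and 0 were lower by more than 1, beside 4.8% of all genes. The ribonucleotide reductase subunits led: Rrm2 had a median of 408 TPM in high libraries, against 0 TPM in low ones, and Rrm1 338 TPM in high ones, against 0.32 TPM in low ones. At the other end Ung, which removes uracil from DNA, was present in 0 high and 10 low libraries, and the factor E2f1 in 6 high and 51 low ones.

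Within the 16 high libraries the mean over the 49 S phase genes ran from 0.96 in C27 to 5.36 in C57. C75, C125, C57, C135 and C83 passed 4, at 4.67, 5.35, 5.36, 4.39 and 4.35, while C43 (1.57), C59 (1.73) and C140 (1.98) stayed below 2 together with C27. Both kinds of cell held much of the mitotic program: C57 had 30 members and C43 had 31. Over all C libraries the member mean and the S phase mean had a rho of 0.56, and over the 16 high libraries one of 0.02. The other G2 and mitosis genes had a rho of 0.64 with the members over all C libraries and of 0.82 over the high ones. Over the 92 low libraries the rho with the members was 0.28 for S phase genes and 0.19 for other G2 and mitosis genes. Of the S phase means of at least 4 in C, 4 belonged to intermediate libraries (C126 at 5.37, C123 at 4.70, C119 at 4.20 and C61 at 4.09) and 2 to low ones (C127 at 5.29 and C95 at 4.20). C127 held 9 members and C95 8, though C127 also had 26 and C95 22 of the 72 other G2 and mitosis genes, against a median of 11 over the low libraries. No S phase mean of 4 was found in N or R.

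**Figure D4:**
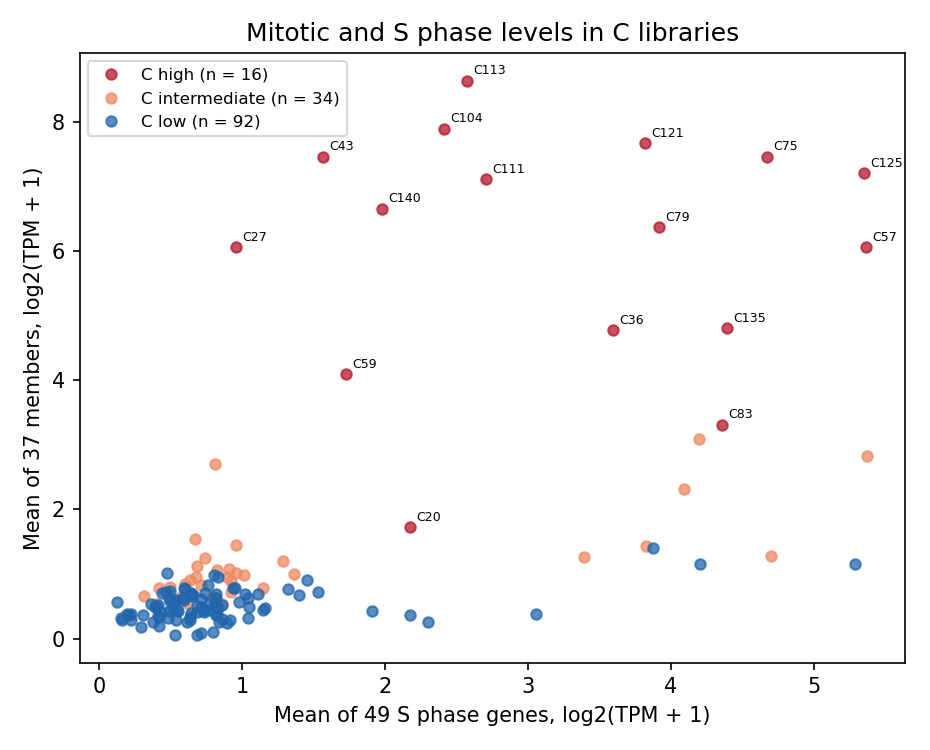
Mean level of the 37 members against the mean of 49 S phase genes, both in log2(TPM + 1), with 1 point per C library coloured by range (16 high, 34 intermediate and 92 low) and the high libraries named. The high libraries spread from an S phase mean of 0.96 (C27) to 5.36 (C57), and C127, at 5.29, lies among the low libraries.

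Stem cell markers were weaker in the cells high in mitotic genes, but most were still there. Of 19 markers 10 were lower in high than in low libraries by more than 1, beside 4.8% of all genes, and 2 were higher by more than 1; the median was -1.41. Aldoc, an enzyme of glycolysis in astroglia, had 8.46, 20.4 and 3134 TPM in high libraries, against 4.45, 7335 and 20247 TPM in low ones, a difference of -7.09 and the largest of all genes in that direction. Slc1a3, the glutamate transporter of radial glia, had 7.39, 405 and 4032 TPM in high libraries, against 13.3, 4718 and 16614 TPM in low ones, and was present in every library of both ranges. The ranges overlapped for both genes, and for Slc1a3 the levels remained well above 0. Apoe, the lipid carrier, had a median of 291 TPM in high libraries, against 3749.9 TPM in low ones (a difference of -3.19), Fabp7, which binds fatty acids in radial glia, 1307 TPM, against 6540.0 TPM (-2.43), and Sox9, a glial factor, 193 TPM, against 599.5 TPM (-1.53).

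The other markers that were lower by more than 1 were Id4 (-3.51), Id3 (-3.16), Hopx (-3.25), Gfap (-2.58) and Thrsp (-1.41). Id4, an inhibitor of proneural factors linked to quiescence of stem cells, was present in 43.8% of high and 90.2% of low libraries, with medians of 0.785 TPM in high and 212 TPM in low ones. Hopx, a marker of quiescent radial glia, had a median of 8.68 TPM, against 330.3 TPM, and Gfap, the glial filament, 6.62 TPM, against 159 TPM. The Sox2 and Nes levels differed little on this scale: Sox2, a factor shared by stem cells and early progenitors, by 0.01 and Nes, a filament of neural stem cells, by -0.09. Vim, an intermediate filament of growing neural cells, was higher by 2.76, with a median of 588 TPM in high libraries, against 52.2 TPM in low ones, and Pax6, a factor of stem cells and progenitors, by 1.43. Hes1, Hes5, Prom1 and Lpar1 lay within 1 of 0.

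Progenitor markers were higher in the same cells. All 14 intermediate progenitor markers past the filter had a higher mean in high than in low libraries, beside 57.6% of all genes. A difference of more than 1 was found for 8 of them, beside 19.1% of all genes, and the median was 1.16. That median was 0.59 with a pseudocount of 10 and 0.63 with a cut of 13 members for the high range. Sox11, a factor of newly born neurons and their progenitors, had 0.14, 120.1 and 1227 TPM in high libraries, against 0, 0.555 and 2384 TPM in low ones, a difference of 4.59. Ccnd2, a cyclin of G1 used by progenitors, had 2, 650.3 and 1594 TPM in high libraries, against 0, 26.1 and 1600.3 TPM in low ones (3.36). Both genes reached the same heights in some low libraries, so the ranges overlapped. Insm1, a factor of dividing progenitors, was present in 11 of 16 high (68.8%) and 6 of 92 low libraries (6.52%), and Eomes, Tbr2, the defining factor of intermediate progenitors, in 7 of 16 high (43.8%) and 10 of 92 low ones (10.9%). Elavl2 differed by 2.32, Igfbpl1 by 1.94, Gadd45g by 1.22 and Neurog2 by 1.10, while Neurod1, Neurod4, Sox4, Btg2, Mfng and Tfap2c differed by 1 or less. Of the high libraries 9 held no Eomes at a TPM of 1.

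**Figure D5:**
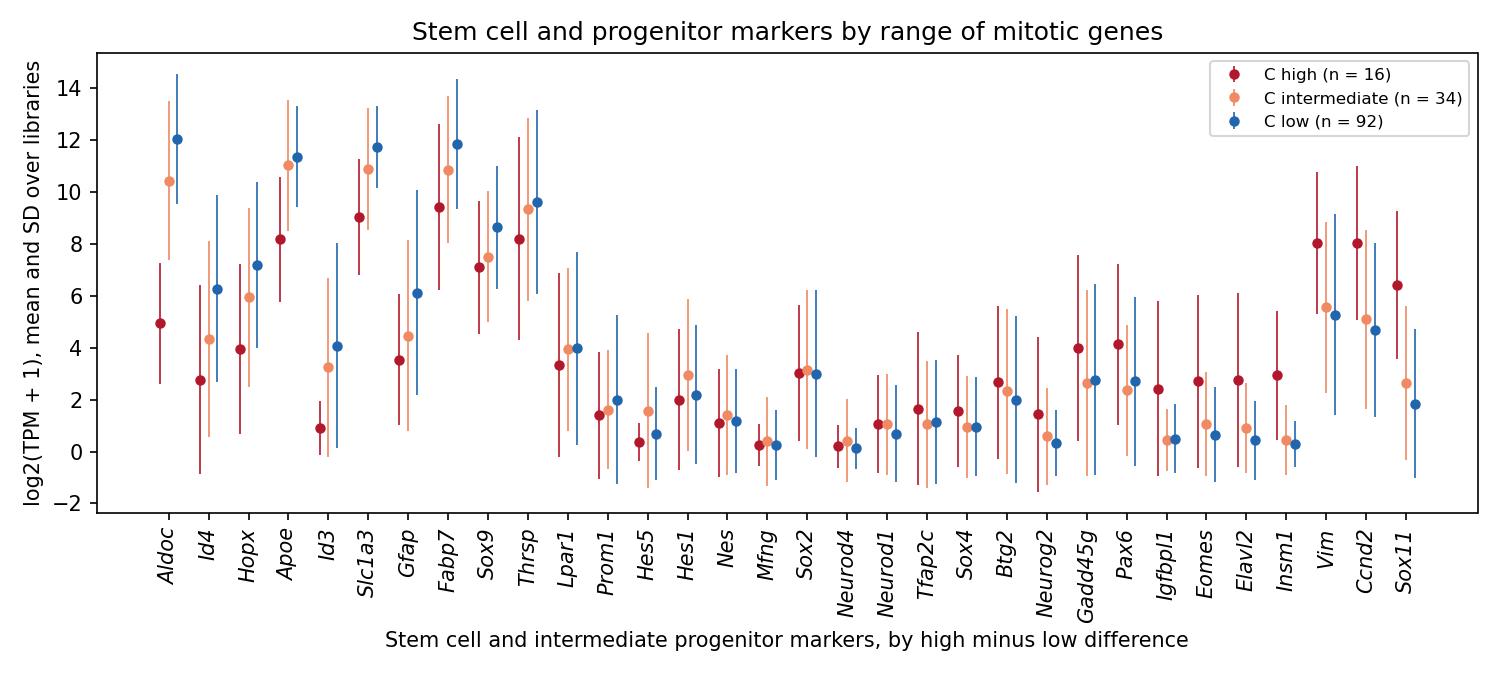
Mean and SD over libraries of the reported stem cell and intermediate progenitor markers in log2(TPM + 1) in high (n = 16), intermediate (n = 34) and low (n = 92) C libraries, ordered by the high minus low difference. Aldoc, at the left, differs by -7.09 and Sox11, at the right, by 4.59, and the SD bars of most genes overlap.

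Single cells with mitotic genes combined these markers in different ways. C20 (stem cell list mean 7.34), C83 (6.31), C121 (6.16), C111 (5.76) and C43 (5.51) kept a stem cell mean above 5, against a median of 6.16 in low libraries (lowest 2.18, highest 8.15). Of these, C20 and C83 had the lowest member means of the high range, 1.72 and 3.32, and C83, with 19 members, lay at the limit of that range. C125 (2.70), C27 (3.18) and C113 (3.20) were lowest among the high libraries. Within the high range the progenitor list mean was highest in C79 (4.66), C57 (4.41) and C135 (4.32) and lowest in C83 (0.60) and C27 (0.99). The highest progenitor means of the C class lay outside that range, at 5.75 in the low library C127 and 5.55 in the intermediate library C123. Every high library had a stem cell mean inside the range of the low libraries, and C121, with 35 members, lay near the low median. That range is wide, because its lowest library, C133, had a neuroblast list mean of 6.28. The median stem cell mean of the high libraries was 4.10. A progenitor mean of at least 4 was found in 3 high, 2 intermediate and 3 low libraries. Over all C libraries the member mean had a rho of -0.45 with the stem cell mean and 0.27 with the progenitor mean, and over the 16 high ones -0.18 and -0.13.

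Markers of the astrocyte and the neuroblast moved with the ranges as well. Of 11 astrocyte markers 7 were lower in high libraries by more than 1, beside 4.8% of all genes (median -1.94), led by the transporter Slc1a2 (-3.04) and the gap junction protein Gja1 (-2.67), and 0 were higher by more than 1. The astrocyte list mean was at least 4 in 1 of 16 high, 17 of 34 intermediate and 46 of 92 low libraries. The stem cell comparison was not repeated without these libraries. Of 15 neuroblast markers past the filter 8 were higher by more than 1, beside 19.1% of all genes (median 1.01), with Sox11 (4.59) and the RNA-binding protein Elavl4 (3.30) first. Sox11, Igfbpl1 and Neurod1 were also on the progenitor list, so the 2 lists are not separate results. Dcx, the defining protein of migrating neuroblasts, was present in 0 of 16 high and 5 of 92 low libraries. Among 9 genes of quiescence and Cdk inhibition past the filter 5 were higher by more than 1, also beside 19.1%, led by the inhibitors of G1 kinases Cdkn2c (3.52) and Cdkn2d (3.52), while Cdkn1c (-0.05) and the factor Foxo1 (-0.55) were not. The rho of that list with the member mean was 0.30 over all C libraries, 0.70 over the 16 high ones and 0.14 over the 92 low ones.

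Markers of the other cell types had medians within 0.5 of 0 between the ranges and were strong in single libraries. The median differences of the lists were 0.16 for oligodendrocyte precursors, -0.16 for oligodendrocytes, 0.35 for endothelial cells, -0.03 for mural cells, -0.03 for microglia, -0.04 for mature neurons and -0.46 for red blood cells. None of the genes of these lists was higher by more than 1, beside 19.1% of all genes. Lower by more than 1, beside 4.8% of all genes, were 2 of 11 oligodendrocyte genes, among them Cnp (-1.10), and 1 of 7 microglial genes. The other genes at the lower end were Neu4 (-0.18) and Sox10 (-0.16), Abcc9 (-0.60) and Pdgfrb (-0.49), C1qb (-0.20), Snap25 (-0.45) and Syt1 (-0.32), and Hba-a1 (-0.78) and Hbb-b1 (-0.53), while Cldn5 (0.05) and Ly6a (0.32) were the lowest endothelial ones. At the upper end, which lay below 0 for the oligodendrocyte and red blood cell lists, were Pdgfra (0.77) and Lhfpl3 (0.56), Aspa and Mog (both just below 0), Ly6c1 (0.59) and Flt1 (0.38), Rgs5 (0.83) and Acta2 (0.82), C1qc (0.37) and P2ry12 (0.19), Gad1 (0.36) and Syn1 (0.21), and Hbb-b2 (-0.15) and Hba-a2 (-0.39). C113, with the highest member mean, had an oligodendrocyte precursor list mean of 5.53, and C27 had 3.25, with a range of 0 to 5.53 and a median of 0.30 over the high libraries and of 0 to 7.63 and 0.19 over the low ones. Of the defining precursor genes, Pdgfra was present in 2 of 16 high libraries and 15 of 92 low ones, and Sox10 in 0 high and 4 low ones. C140 had an endothelial mean of 3.22 and a mature neuron mean of 3.23. Whether such libraries hold more than 1 cell was not tested; with C113 left out among the libraries high in another cell type, the median differences were -1.47 for stem cell markers and 1.20 for progenitor markers.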

How the data were processed

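The submitters' table gave TPM per gene for 172 single-cell libraries made from total RNA with a NuGEN Ultralow V2 kit, per the labels' protocols. The authors deposited these TPM values, estimated with RSEM against mm9, per the submitters' processing notes. The version, aligner, annotation, cell filters, doublet removal and depth are not stated there. Of all values 78.5% were 0. TPM was analysed as log2(TPM + 1), and differences on that scale understate changes of low genes. Each class mean was subtracted, and a difference above 1 was counted beside the same over the 12007 genes at a TPM of at least 1 in at least 5% of libraries. Cells of unnamed animals are not replicates, so no p-value was computed. Shares have exact Clopper-Pearson 95% intervals. Doublets were not called. The members, lists and tests were chosen with earlier results of these data known. Every member is named; of other lists, stem cell and progenitor markers are named, and otherwise the 2 genes furthest to each side, with further ones added after values were seen; a few are counted but not reported here. Named libraries were also picked afterwards. Alternatives changed the pseudocount, filter, scaling, libraries, level of presence and cut. Calculations used Python 3.11.15 with pandas 2.3.3 and scipy 1.17.1, tested on simulated data. Promoter windows are from GRCm38.p6, a later build than mm9, and were matched by gene symbol.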

Additional observations from a re-analysis of the deposited data

Results flagged for a closer look

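Within the 4 R libraries, 17 of the 37 members had 1 library far from the other 3, by Dixon's test of the gap against the range at its 95% level. Chance flags about 1 in 20 groups of spread values, a rate that does not apply where 3 values are tied. In 15 of the 17 cases the other 3 libraries were all listed at 0, so that any value above 0 met the criterion. In 7 the outlying value reached a TPM of 1, and in 2 it reached a TPM of 10. The largest were Tpx2 in R3 (200.79 TPM) and Cenpf in R2 (39.82 TPM). In R1 the far values were Nuf2 (2.52 TPM), Aurka (1.69 TPM), Top2a (1.55 TPM), Cenpe (0.67 TPM) and Bub1 (0.64 TPM). In R2 they were also Aurkb (1.82 TPM) and Plk1 (0.78 TPM). In R3 they were also Cdca3 (0.48 TPM), Ccnb2 (0.46 TPM), Nusap1 (0.42 TPM), Mad2l1 (0.39 TPM), Cdc20 (0.37 TPM) and Kif20a (0.18 TPM). In R4 they were Spc25 (1.58 TPM) and Bub1b (0.45 TPM).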

How the results depend on the processing

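Of 98 recomputed values for 11 results, 0 changed sign, 16 moved by more than the yardstick and 82 by less. The yardstick was 1.5 times for counts, the interval for the share, and otherwise 1 SD between cells or members, which is wide. Counts and the share had no sign to change. With no filter on genes, the member values and the stem cell median could not move, because all of those genes passed the filter. The count of members higher in C than in N by more than 1, reported as 6, was 16 with a pseudocount of 0.1 (beside 20.7% of all genes), 1 with one of 10 (3.73%), 2 after rescaling (6.35%) and 3 without libraries high in another cell type list (11.8%). In the last 3 settings the members' share was below that of all genes. Against R the count of 14 became 3 of 37 with a pseudocount of 10, beside 7.22% of all genes, so the members' share was then near that of all genes. It was 13 to 14 when each R library was left out in turn, beside 22.3 to 26.1% of all genes. The median member difference of C minus N was 0.43 with a pseudocount of 10, and that of C minus R was 1.03 with one of 0.1, 0.41 with one of 10 and 0.67 to 0.77 when each R library was left out. In C, the median member was present in 19.7% of libraries, and in 10.6% at a TPM of at least 10. With a lower cut, at least 13 members, 34 instead of 16 C libraries were high. The median high minus low difference of other G2 and mitosis genes was then 2.15, and it was 5.28 with a pseudocount of 0.1, 2.31 with one of 10, 3.67 with no filter and 4.57 with presence at a TPM of at least 10. For S phase genes it was 1.40 with a pseudocount of 10 and 1.18 with the lower cut. Within the wide yardstick, the progenitor median of 1.16 was 0.59 with a pseudocount of 10, 0.63 with the lower cut, 1.77 with a pseudocount of 0.1 and 1.68 with presence at a TPM of at least 10. Why these values moved was not tested. Rescaling changed the C minus N median of all genes to 0.04, against 0.17 before it, and 37 of 37 members still lay above 0. The pseudocount of 0.1 left 36. The share of all genes above 0 was not computed in these settings. Without C20, an alternative chosen after seeing the data, the stem cell median was -1.64 and the progenitor median 1.22, and without C27 they were -1.13 and 1.34. With all 4 R libraries high in neuronal markers, leaving such libraries out gave no value for R. No paired analysis was possible because the result comes from no test and the numbers in the titles only name cells. TPM keeps no depth, so a missing member can be an unsampled transcript, and 4 R libraries limit any statement on that class.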
